A study of Homo sapiens with 7 samples.

Results

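Promoter contacts of T-47D and LNCaP cells were compared gene by gene from H3K27ac HiChIP, an assay that joins DNA ends lying close together in the nucleus and then enriches the joined fragments with an antibody against acetylated lysine 27 of histone H3, a mark of active promoters and enhancers. For each protein-coding gene of the autosomes, the read pairs of all loops with an anchor on a 500 bp window around a start site were summed. Loops between 2 different anchors, 5 kb to 2 Mb apart, were kept. The sum was scaled to 1000000 read pairs in the kept loops of that list (RPM) and compared as log2(RPM + 1), T-47D minus LNCaP. Of 19229 genes, 12356 had a promoter loop in at least 1 of both lists and were compared. A loop was present for 8748 genes in both lists, for 970 in T-47D alone and for 2638 in LNCaP alone, and 6873 genes had none in either.

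The series holds 7 samples of 3 carcinoma cell lines. T-47D, a breast ductal carcinoma line, gave 1 sample, and LNCaP, a prostate carcinoma line, gave 2 samples that were merged into 1 deposited list. Chromatin of both lines was cut with MboI and precipitated with the same H3K27ac antibody, and no treatment is labelled for either. The remaining 4 samples are Ishikawa endometrial adenocarcinoma cells cut with DpnII, given vehicle or 10 nM beta-estradiol for 1 hour, and enter here only as an outside value at FOXA1. With 1 list per line there is no replicate error, so no test across lists was made, each difference is a description, and a difference between the cell lines cannot be told apart from one between the libraries. Intervals of folds are exact 95% binomial intervals and those of shares of loops are 95% Wilson intervals, and both cover counting error only, since read pairs carry no molecular identifiers.

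From T-47D, 40880 loops with 337268 read pairs were kept, and from LNCaP 146350 loops with 1777734, so that 1 read pair was worth 2.97 RPM in T-47D and 0.563 RPM in LNCaP. Each deposited loop had at least 3 read pairs, which sets the lowest value a gene can take above 0 at 8.90 RPM in T-47D and 1.69 RPM in LNCaP. Loops that touched a promoter took 72.8% of T-47D and 62.7% of LNCaP read pairs. The anchors were a median 2616 bp wide in T-47D and 3225 bp in LNCaP. Anchor edges fell on GATC, the site MboI cuts, at both sides of 18983 of 18985 T-47D anchors and of all 42254 LNCaP anchors in the GRCh37 sequence (within 5 bp).

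A promoter loop in this assay joins a start site to another acetylated site, which may be an enhancer or a second promoter, and its read pairs depend both on how often the sites meet and on how much acetylation they carry, and fewer cells with a loop cannot be told apart from a weaker loop in each cell. Luminal cells of breast and prostate share much of their wiring. Both use the forkhead factor FOXA1 to open enhancers, on which estrogen receptor with GATA3 acts in breast cells and androgen receptor with HOXB13 in prostate cells. The genes these receptors control, such as PGR and GREB1 in breast and KLK3 and TMPRSS2 in prostate, are classic readouts of the respective hormone.

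Over the 8748 genes with a loop in both lists, the log2 difference had a median of 0.65 (95% order-statistic interval over genes, 0.61 to 0.69). This interval takes genes as independent, although they share anchors and lists, and covers neither replicate error nor the scaling. With the median ratio of genes with 10 or more read pairs in both lists set to 1, the median was -0.21. That scaling shifts the median by its own rule. A gene enters here from 8.90 RPM in T-47D and from 1.69 RPM in LNCaP. Over all genes compared the median was 0.25. Both lists ranked these genes only loosely alike (Spearman rho = 0.471 across genes, which are not independent replicates). Within 2-fold of each other lay 3678 genes, or 42.0%. A difference of 2 or more on the log2 scale, which is 4-fold in RPM + 1, counted as a call. By that rule 2606 genes were called higher in T-47D, 21.1% of those compared, and 2946 were called higher in LNCaP, 23.8%. Of these, 970 T-47D calls and 2325 LNCaP calls had no promoter loop in the other list. Every gene with a loop in T-47D alone was called, since 8.90 RPM against 0 already gives 3.31. Among genes with a loop in LNCaP alone, 872 lay at or under 8.90 RPM, the lowest value that T-47D can show. When a gene absent from a list was counted there as if it had the 3 read pairs that the lists could just show, 2902 genes (23.5%) were at least 4-fold higher in T-47D and 1494 (12.1%) in LNCaP. With the LNCaP read pairs thinned to the T-47D total, 4159 genes were called higher in T-47D and 1972 in LNCaP, and with the median ratio of well-covered genes set to 1 the counts were 1605 and 3605. With loops of 10 or more read pairs alone, the counts were 1805 and 4709, and with partners without a promoter alone 2248 and 4264. The split of calls between the lines thus differed with the depth, the scaling and the loops counted.

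**Figure D1:**
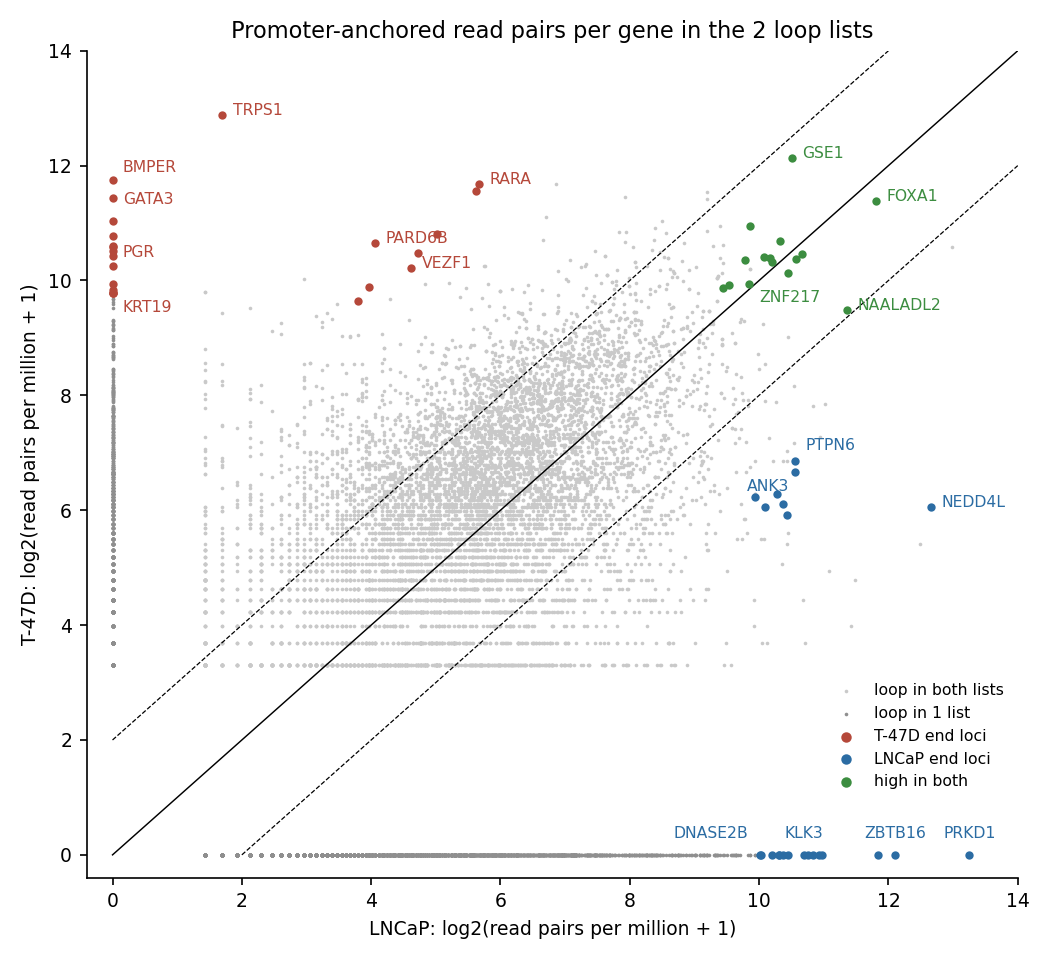
Each of 12356 genes is placed by its promoter-anchored RPM in LNCaP (horizontal) and T-47D (vertical), both as log2(RPM + 1). The solid line marks equal values and the dashed lines a log2 difference of 2, and genes with a loop in 1 list lie on an axis, among them GATA3 and PGR at the left and KLK3 and PRKD1 at the bottom, while FOXA1 lies near the equal line at the upper right.

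The labels were first checked against luminal markers. For LNCaP, all 10 prostate luminal markers, among them KLK2, KLK3, KLK4, TMPRSS2, HOXB13, SLC45A3, STEAP2, ACP3 and TRPM8, were called higher in the LNCaP list. KLK2, KLK3 and KLK4 lay on 1 LNCaP anchor and share 1 value. For T-47D, 5 of 10 breast luminal markers (GATA3, ESR1, PGR, TFAP2C and KRT19) were called higher in the T-47D list, KRT8 and FOXA1 lay within the limits, and XBP1, TFF1 and KRT18 had no T-47D promoter loop at all. KRT18 rested on an anchor edge: with overlapping anchors of both lists merged into common sites, it stood at 436 RPM in T-47D and 142 RPM in LNCaP, whereas XBP1 and TFF1 stayed at 0 in T-47D. Of 17 basal, mesenchymal and blood markers, 11 had no promoter loop in either list, among them KRT5, KRT14, TP63, PTPRC and CD3E.

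At the T-47D end, the 15 loci with the largest differences had 296 to 2557 promoter read pairs in T-47D and, but for TRPS1, none in LNCaP. They were BMPER, GATA3, TRPS1, PRLR, EDN1, TYRP1, PGR, HOXC11, MAP6D1, the histone gene pair H2BC9 and H3C7, H1-3, SERPINA1, TRIL, KRT19 and P2RY6. Receptors and regulators of mammary epithelium are among them. GATA3 is a zinc finger factor of luminal cell identity, TRPS1 a GATA-type repressor, PRLR the prolactin receptor, PGR the progesterone receptor and KRT19 a keratin of simple epithelia. These positions are what the rule selected and are given as a description.

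GATA3 (ENSG00000107485, chr10:8087341-8117161, plus strand, GRCh37) had 932 T-47D read pairs in 57 loops, 2763 RPM, and 0 in LNCaP. That makes it 1638-fold higher with the LNCaP list counted as 3 read pairs. Such folds hold for the anchors as listed. They are not strict lower bounds, since loops removed before the lists were deposited could hold more than 3 read pairs together. The nearest LNCaP anchor of any kind lay 31.4 kb from a GATA3 start site. Its loops reached far: 61.9% of the read pairs led more than 500 kb away, and 93.1% of all its read pairs lay downstream. The strongest long loop joined an anchor 1146 kb downstream with 137 read pairs, and a loop from a second GATA3 anchor to the same partner had 82. The short loop with 214 read pairs ended inside GATA3 itself, 3.89 kb downstream of the start.

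PGR (chr11:100900355-101000544, minus strand) had 517 read pairs in 23 loops, 1533 RPM, at least 908-fold above LNCaP, and 98.8% of them led to anchors without a protein-coding promoter. The partners clustered upstream, and the strongest loop (124 read pairs) ended 216 kb before the start site. PRLR, with 705 read pairs, likewise looped upstream, to anchors 17.6, 249 and 54.0 kb before its start with 111, 105 and 88 read pairs. KRT19 was more local, with 168 of its 296 read pairs in 1 loop to an anchor 6.48 kb upstream. The strongest contacts of PGR, PRLR and KRT19 thus lay upstream of the start site, and those of GATA3 downstream of it.

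BMPER, which encodes a secreted binder of bone morphogenetic proteins, had 1155 read pairs in 38 loops and the highest difference of the comparison, 11.74 on the log2 scale. Its strongest loops ended within the gene, 163 and 153 kb downstream of the start, with 278 and 237 read pairs. TRPS1 (chromosome 8) had the most T-47D read pairs of these loci, 2557 in 91 loops against 4 in LNCaP. That position hung on which start sites were counted: with 1 start site per gene, the TRPS1 difference was -1.70. EDN1, the endothelin precursor, had 594 read pairs, led by a loop of 122 to an anchor 23.7 kb downstream. HOXC11 had 494, of which 191 lay in a loop to a site 8.90 kb downstream in the HOXC cluster. MAP6D1, H2BC9 and H1-3 differed from the rest in kind: only 10.6%, 12.6% and 8.21% of their read pairs led to anchors without a promoter, against 57.7% to 98.8% at the other 12 loci.

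**Figure D2:**
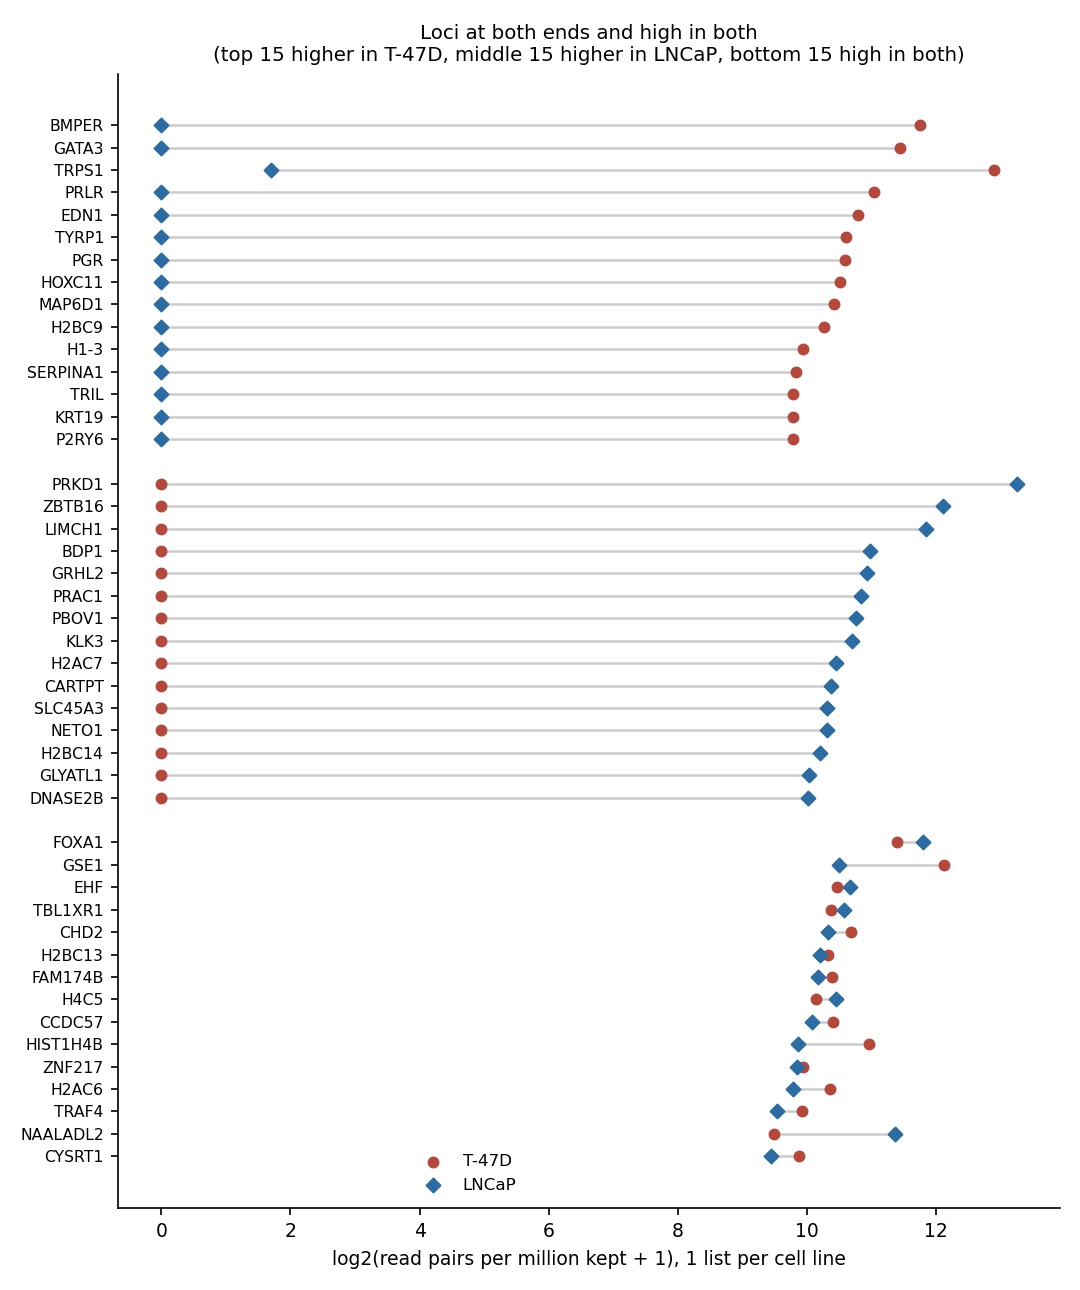
Promoter-anchored read pairs are shown as log2(RPM + 1) for 45 loci, with circles for T-47D and diamonds for LNCaP, 1 value per list and no error bars. The 15 loci at the top have LNCaP values at 0 except TRPS1, the 15 in the middle have T-47D values at 0, and at the 15 at the bottom both values lie above 9.

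At the LNCaP end, the 15 loci had 1843 to 17318 read pairs in LNCaP and none in T-47D, where no anchor of any row touched their start sites. They were PRKD1, ZBTB16, LIMCH1, BDP1, GRHL2, PRAC1 with HOXB13 and PRAC2, PBOV1, KLK3 with KLK2, KLK4 and KLK15, H2AC7, CARTPT, SLC45A3, NETO1, H2BC14 with H2AC14, GLYATL1 and DNASE2B. The LNCaP anchors of H2AC7 and H2BC14 also carry H4C5 and H2BC13, which are named further on among loci high in both lists, so these pairs share 1 LNCaP value each. Several are textbook genes of prostate epithelium. KLK3 encodes prostate-specific antigen, KLK2 a related kallikrein protease, SLC45A3 prostein, and HOXB13 the homeobox factor of the prostate lineage. ZBTB16 encodes the zinc finger repressor PLZF.

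PRKD1, which encodes protein kinase D1 (chr14:30045685-30661104, minus strand), led all genes with 17318 read pairs in 171 loops, 9742 RPM, or 1095-fold above T-47D counted as 3 read pairs. Its 3 strongest loops, with 3007, 2597 and 2093 read pairs, stayed within the gene, 22.5 to 120 kb downstream of the start. ZBTB16 had 7849 read pairs in 64 loops, 4415 RPM, led by 1872 in a loop to its own gene body 60.5 kb downstream. LIMCH1, an actin-binding protein, had 6536 read pairs, with 824 and 706 in loops to a site 212 kb upstream.

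KLK3 (ENSG00000142515, chr19:51358171-51364020, plus strand) had 2936 read pairs in 61 loops, 1652 RPM, at least 186-fold above T-47D with anchors as listed. With merged anchors the T-47D list held 11.9 RPM there. The same 76.7 kb anchor carried KLK2, KLK4 and KLK15, so these 4 genes share 1 value and are not separate measurements. Of its read pairs, 1509 joined an anchor 55.5 kb upstream that holds the SMIM47 promoter and overlaps ACP4, and 723 an anchor 66.6 kb downstream without a protein-coding promoter. PRAC1, HOXB13 and PRAC2 also shared 1 anchor, with 3243 read pairs. There 1364 and 754 led to sites 25.4 and 35.8 kb upstream of PRAC1, both without a promoter. SLC45A3 had 2250 read pairs, of which 1379 joined an anchor 26.3 kb upstream, inside NUCKS1. BDP1, an RNA polymerase III factor, and CARTPT, a neuropeptide gene, looped to the same anchors in and beside MCCC2 on chromosome 5, with 3561 and 2348 read pairs.

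**Figure D3:**
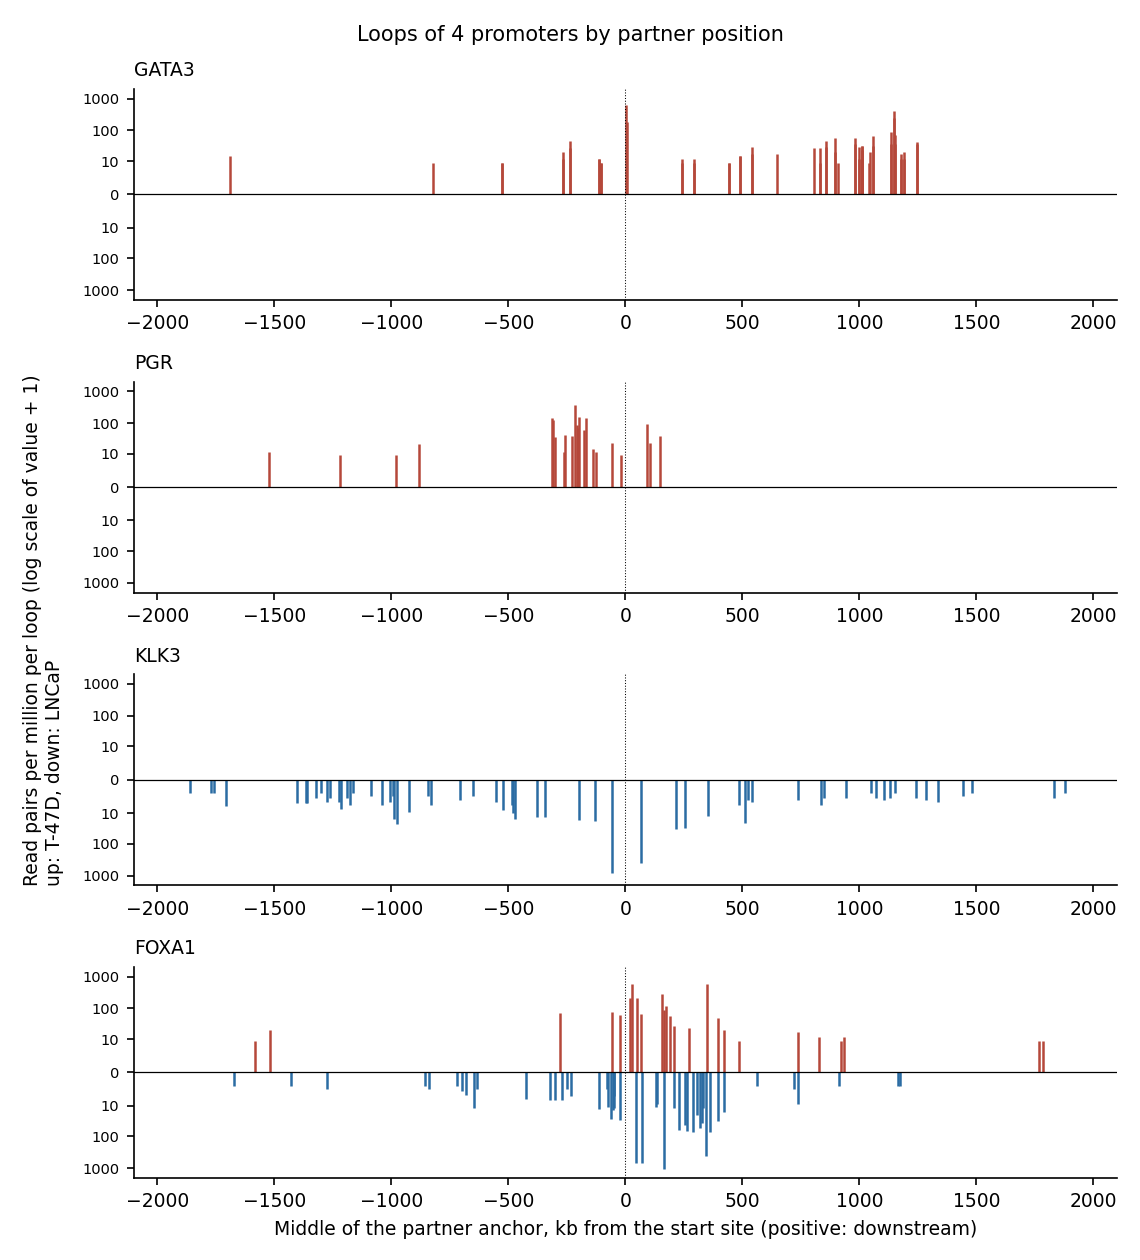
Loops of 4 promoters are drawn at the middle of the partner anchor (kb from the start site of the gene, positive downstream), with the height as RPM per loop on a log scale of value + 1, T-47D upwards and LNCaP downwards. GATA3 and PGR have T-47D loops alone, GATA3 mainly toward 1146 kb downstream and PGR mainly upstream, KLK3 has LNCaP loops alone with the tallest at 55.5 kb upstream and 66.6 kb downstream, and FOXA1 has loops of both lists on its downstream side.

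Sequence just before the start sites shows how unlike these promoters are. The 250 bases before the GENCODE canonical start are given for a T-47D end promoter rich in CG, GATA3 (chr10:8096401-8096650, plus strand), for PGR (chr11:101000545-101000794, minus strand), for the LNCaP end promoter KLK3 (chr19:51357921-51358170, plus strand) and for FOXA1, high in both (chr14:38064455-38064704, minus strand), in GRCh37, 5′ to 3′ on the strand of the gene, with CG dinucleotides in capitals.
GATA3: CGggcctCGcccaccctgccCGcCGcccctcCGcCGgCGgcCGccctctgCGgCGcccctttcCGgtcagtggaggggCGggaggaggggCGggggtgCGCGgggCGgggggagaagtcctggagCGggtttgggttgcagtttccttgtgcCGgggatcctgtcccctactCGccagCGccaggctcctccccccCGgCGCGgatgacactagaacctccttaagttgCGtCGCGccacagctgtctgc
PGR: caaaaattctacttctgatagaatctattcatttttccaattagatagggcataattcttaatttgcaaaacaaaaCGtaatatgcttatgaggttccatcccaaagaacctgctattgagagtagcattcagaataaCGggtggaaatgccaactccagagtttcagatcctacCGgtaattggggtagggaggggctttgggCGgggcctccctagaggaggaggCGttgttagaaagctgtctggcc
KLK3: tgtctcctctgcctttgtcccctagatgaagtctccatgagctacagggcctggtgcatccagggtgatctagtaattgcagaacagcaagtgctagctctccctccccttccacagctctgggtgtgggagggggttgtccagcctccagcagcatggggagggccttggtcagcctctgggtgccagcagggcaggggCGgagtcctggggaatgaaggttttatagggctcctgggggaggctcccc
FOXA1: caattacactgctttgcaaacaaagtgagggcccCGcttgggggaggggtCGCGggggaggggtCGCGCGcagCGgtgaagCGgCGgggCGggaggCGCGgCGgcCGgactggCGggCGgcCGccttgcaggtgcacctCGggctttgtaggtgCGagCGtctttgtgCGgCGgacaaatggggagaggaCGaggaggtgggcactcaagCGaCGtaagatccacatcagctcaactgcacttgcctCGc
GATA3 and FOXA1 each held 26 CG dinucleotides in these bases, PGR 5 and KLK3 1. Short motifs were searched on both strands of these bases. The androgen receptor half-site, spelled AGAACA, was held by 8.88% of all 19229 promoters of that length. The estrogen receptor half-site AGGTCA was held by 9.98% and the GATA motif AGATAA by 6.67%. The forkhead motif TGTTTAC was held by 2.13% and the TATA box, taken as TATAAA, by 9.42%. KLK3 held the androgen receptor half-site from position -170 and the TATA box on the opposite strand from -28, counted back from the start site, and the other 3 promoters held none of these motifs. These are matches of letters, not measured binding sites.

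CpG-rich start sites were the rule among genes with loops in both lists. With the 500 bp around the canonical start taken as CpG-rich at an observed over expected CG ratio of 0.6 or more, 90.8% of the 8748 genes in both lists were, against 67.7% of genes in T-47D alone, 75.6% of genes in LNCaP alone and 37.5% of genes with no loop. Genes called higher in T-47D and in LNCaP were alike, at 80.3% and 79.2%. At the ends, 10 of 15 T-47D loci and 9 of 15 LNCaP loci were CpG-rich.

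Some end loci depended on where an anchor stopped. With overlapping anchors of both lists merged into common sites, an alternative chosen after seeing the data, 11 of the 15 T-47D end loci kept their difference, and EDN1, HOXC11, MAP6D1 and TRIL fell to 6.98, 6.37, 8.12 and 8.36. All 15 remained above 4-fold with merged anchors, whereas with 1 start site per gene 13 kept a loop and 12 a call. At the LNCaP end the histone genes H2AC7 and H2BC14 moved to 0.14 and 0.12, where T-47D anchors lay 0.473 and 3.33 kb from their windows and the merged sites carried 1545 and 1281 RPM in T-47D. H2AC7 also lost its call with a 2 kb window (-1.43). GRHL2, SLC45A3, PBOV1 and KLK3 moved to -4.06, -3.72, -5.82 and -7.01. The remaining 9 LNCaP loci held no T-47D read pair either way, among them PRKD1, ZBTB16, LIMCH1, PRAC1 with HOXB13, and NETO1. In the same way, 51.4% of the KLK3 and 73.4% of the SLC45A3 read pairs in LNCaP lay in loops whose anchors overlapped those of a T-47D loop, although the T-47D anchor stopped short of the start-site windows.

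Width of the promoter anchors moved with the values, above all in LNCaP. A gene's summed anchor width and its RPM had a Spearman rho of 0.649 across 11386 genes in LNCaP and of 0.269 across 9718 genes in T-47D. The median gene had 4.76 kb of promoter anchor in LNCaP and 3.03 kb in T-47D, whereas the 15 LNCaP end loci had 8.75 to 136 kb and the 15 T-47D end loci 1.52 to 24.4 kb. Per kb of anchor, the LNCaP end loci ran from 21.5 to 151 RPM, against a median gene of 8.03, and the T-47D end loci from 95.6 to 576 RPM, against 21.3. Over the genes in both lists, dividing by anchor width raised rho to 0.551 and the median log2 difference to 1.44, and left 132 genes at least 4-fold higher in LNCaP in place of 621, with 2880 higher in T-47D in place of 1636. The part of anchor width in the differences was not tested.

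**Figure D4:**
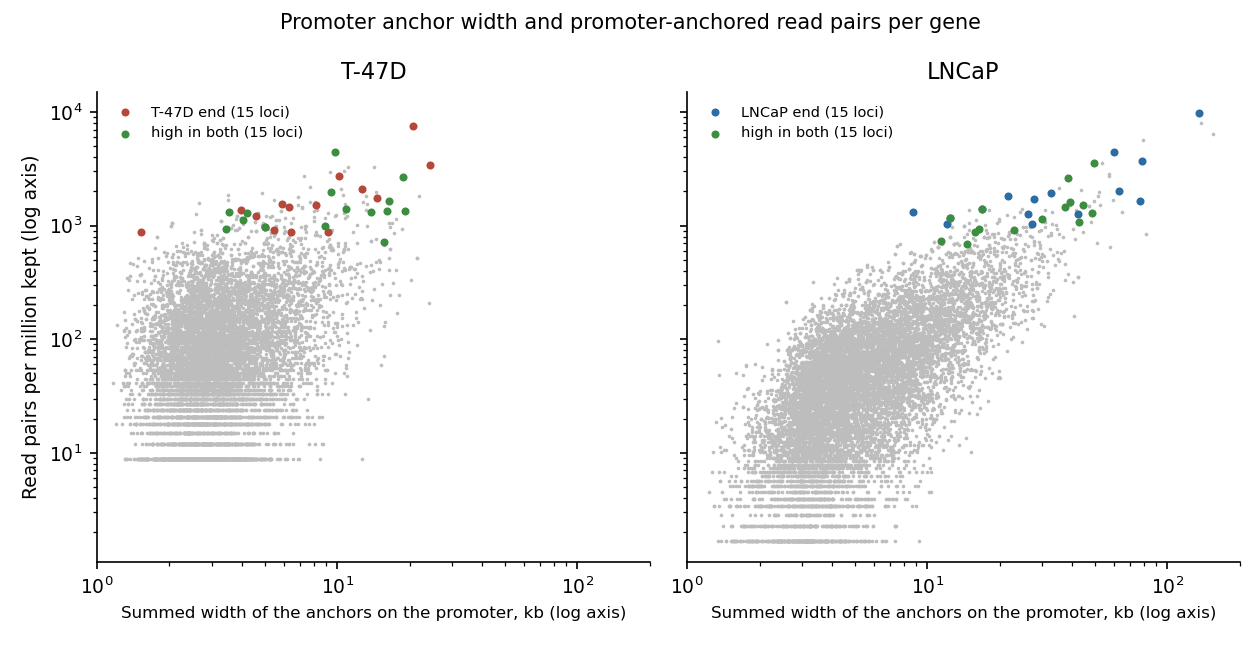
Each gene with a promoter loop is placed by the summed width of the anchors on its promoter (kb, log axis) and its promoter-anchored RPM (log axis), for T-47D at the left and LNCaP at the right. Ranks of width and RPM agree more closely in LNCaP (rho 0.649 against 0.269), and the LNCaP end loci lie at 8.75 to 136 kb while the T-47D end loci lie at 1.52 to 24.4 kb.

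Loci measured in both lists gave folds without a count put in for an absent gene, for the anchors as listed. Among genes with 20 or more read pairs in each list, PARD6B, a cell polarity adaptor, had 541 read pairs in T-47D and 28 in LNCaP, 102-fold higher in RPM (69.7 to 155). RARA, the retinoic acid receptor alpha that estrogen induces in breast cells, had 1109 against 89, 65.7-fold (52.9 to 82.5). MED13L, DAB2IP, CRIP2, THSD4, ACOT2 and VEZF1 followed at 50.1-fold to 64.5-fold. All 8 kept a difference above 4-fold under each alternative that was run on single genes.

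On the LNCaP side NEDD4L, an E3 ubiquitin ligase, had 11464 read pairs in 370 loops against 22 in 5 T-47D loops, 98.9-fold higher in RPM (65.3 to 158). DEGS1, a sphingolipid desaturase, followed at 23.2-fold (14.98 to 38.0) and MIA3, an endoplasmic reticulum export factor, at 19.3-fold (12.8 to 30.5). NFIX, NVL, ANK3, ATP6V0D1 and PTPN6 lay between 13.1-fold and 16.7-fold. With 1 start site per gene, 6 of these 8 kept a loop and 5 a call, with ATP6V0D1 at -0.68, and with distal partners alone PTPN6 lost its call at -1.92. Anchors here differed in width, with medians of 43.7 kb in LNCaP and 3.58 kb in T-47D. Per kb, NFIX turned, with 33.1 RPM in T-47D and 22.6 RPM in LNCaP, while NEDD4L stayed higher in LNCaP at 41.6 against 10.3 RPM. The other loci of this set stayed higher in LNCaP per kb, but by less than 4-fold. DEGS1 stood at 75.9 RPM in LNCaP against 27.5 RPM in T-47D, MIA3 at 20.4 against 11.4 and PTPN6 at 38.6 against 28.3. For NEDD4L, DEGS1 and PTPN6 every T-47D promoter read pair lay in a loop also found in LNCaP, whereas 3.47%, 30.4% and 36.8% of the LNCaP read pairs did in the reverse comparison.

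FOXA1 headed the loci that were high in both lists. This pioneer factor (chr14:38058757-38065264, minus strand), whose 18.7 kb T-47D anchor and 49.6 kb LNCaP anchor also carry start sites of MIPOL1 and TTC6, had 902 read pairs in 25 T-47D loops and 6348 in 48 LNCaP loops. At 2674 and 3571 RPM the values differed by 1.34-fold (1.245 to 1.43). Per kb of anchor they were 143 RPM in T-47D and 72.0 RPM in LNCaP. Both lists led downstream across MIPOL1, with 91.1% of T-47D and 95.1% of LNCaP read pairs on that side. In T-47D the strongest loops ended 29.6, 348 and 158 kb downstream, with 203, 201 and 99 read pairs. LNCaP led with 1896, 1231 and 1230 read pairs at 165, 46.4 and 72.3 kb. Of the T-47D read pairs, 62.9% lay in loops also found in LNCaP. The Ishikawa list held no kept loop on the FOXA1 promoter, which does not say that the promoter carried no acetylation there.

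The other 14 loci high in both were GSE1, EHF, TBL1XR1, CHD2, H2BC13, FAM174B, H4C5, CCDC57, HIST1H4B, ZNF217, H2AC6, TRAF4, NAALADL2 and CYSRT1. EHF is an epithelial ETS factor, TBL1XR1 a corepressor subunit, CHD2 a chromatin remodeler, and ZNF217 a zinc finger factor often amplified in breast cancer. ZNF217 stood at 984 RPM in T-47D and 915 RPM in LNCaP, a ratio of 1.08 (0.953 to 1.21), and 97.9% and 98.7% of its read pairs led to anchors without a promoter. EHF and TBL1XR1 were near parity too, at 1405 against 1617 RPM and 1322 against 1524 RPM. GSE1 leaned to T-47D by 3.08-fold (2.89 to 3.29) and NAALADL2 to LNCaP by 3.67-fold (3.23 to 4.19). The histone loci H2BC13, H4C5, HIST1H4B and H2AC6 were high through contacts with other promoters, with 5.01% to 16.01% of read pairs at sites without one in either list. Of the 15 loci, 15 stayed among the 100 genes with the highest lower value under 9 of 12 alternatives, and 11 to 14 did under the other 3.

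How far both lists used the same loops differed between promoters and other sites. Of T-47D loops that touched a promoter, 46.5% (45.9 to 47.03) were found in LNCaP, meaning that both anchors overlapped those of 1 loop, against 16.7% (15.98 to 17.5) of T-47D loops between sites without promoters. For LNCaP the shares were 15.6% (15.3 to 15.8) and 2.21% (2.09 to 2.33). By read pairs, 53.6% of the T-47D and 26.2% of the LNCaP promoter signal lay in common loops. With LNCaP thinned to the T-47D total and loops under 3 read pairs then dropped, which left 32902 LNCaP loops with 242843 read pairs, these came to 31.3% and 30.4%. The genes called higher in T-47D with loops in both lists shared a median 46.6% of their T-47D promoter read pairs, and genes within 2-fold shared 76.9%. For the LNCaP read pairs of the same genes the order was the opposite, at 57.1% and 32.4%.

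In 6 loci with 100 or more read pairs in each list, the T-47D promoter read pairs lay least in common loops. TFAP2A, an AP-2 factor of epithelium, had 131 T-47D and 109 LNCaP read pairs in 14 and 17 loops, none of them common. In T-47D its strongest loop ended 13.7 kb upstream (41 read pairs), in LNCaP 2.50 kb downstream within the gene (33 read pairs). H2BC6 also had no common loop. At HOXC6 and HOXC9, which share anchors, 947 T-47D and 430 LNCaP read pairs had 8.55% of the T-47D ones in common loops, and the strongest T-47D loop ended 46.4 kb upstream, whereas the strongest LNCaP loops ended 5.99 kb upstream and, at HOXC5, 6.33 kb downstream. PDE4DIP, TPRG1 and BCAR3 had 1.89%, 7.02% and 13.3% of their T-47D read pairs in common loops. Of the LNCaP read pairs more were in common loops, 2.91% at PDE4DIP, 27.6% at TPRG1, 31.5% at BCAR3 and 25.3% at HOXC6. For H2BC6 and HOXC6 the direction turned with 1 start site per gene, to -6.11 and -5.54.

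Genes were then grouped by function. The lists were chosen with earlier results of these data in view, so their counts describe and do not test. Over all genes the median difference was 0.25, with 21.1% called higher in T-47D and 23.8% in LNCaP. Among 31 breast luminal and estrogen response genes with a loop, 21 were called higher in T-47D and 5 in LNCaP, with a median of 3.26. ESR1, the estrogen receptor alpha gene, had 188 against 8 read pairs, GREB1 609 against 670 (1806 against 377 RPM), STC2 491 against 313 and CCND1, cyclin D1, 420 against 284. AGR3 and IGFBP4 had 169 and 134 in T-47D and 0 in LNCaP. The 5 that went the other way were XBP1, CA12, TFF1, SCUBE2 and BCL2, each with no T-47D promoter loop, among which TFF1 and CA12 are classic estrogen targets. BCL2, at 6.19 RPM in LNCaP, lay under the lowest value that T-47D can show, so a value like it could not appear in T-47D, and TFF1 had no loop in either list when LNCaP was thinned.

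Among 37 androgen response and prostate luminal genes, 28 were called higher in LNCaP and 2 (PMEPA1 and TRPV6) in T-47D. The median was -5.84. KLK2, KLK3, KLK4 and KLK15 share the same value, as do HOXB13 and PRAC1, so their calls are not separate measurements. RAB3B, called at 5.63 RPM in LNCaP, lay under the lowest value that T-47D can show. It had no loop in either list when LNCaP was thinned. STEAP2, a metalloreductase, had 9 T-47D and 5077 LNCaP read pairs, and TMPRSS2, a serine protease, 18 and 1056. ACP3, which encodes prostatic acid phosphatase, had 0 and 1228. FKBP5, a common androgen and glucocorticoid target, stayed within the limits at 341 RPM in T-47D and 719 RPM in LNCaP. ACP3, NDRG1, UAP1, HERC3, ACSL3 and DBI had no T-47D promoter loop, although a T-47D anchor lay on their windows in rows outside the kept loops.

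Transcription factor families split in a finer way. Of 9 GATA, FOXA and TFAP2 genes with a loop, 6 were called higher in T-47D (GATA3, GATA5, GATA6, TFAP2A, TFAP2C and TFAP2E) and 2 in LNCaP (GATA2, at 122 against 584 RPM, and FOXA3). TFAP2E lost its call with merged anchors (0.95), and FOXA3 had no loop in either list when LNCaP was thinned. Thus GATA3 and GATA2 lay on opposite sides. Of 33 nuclear receptor genes, 14 were called higher in T-47D, led by PGR, RARG, ESR1 and RARA, and 4 in LNCaP, namely NR2F6, RARB, PPARG and THRB, of which NR2F6 lost its call with merged anchors (-1.09). NR2F1, NR3C1 and NR5A1 were called on 8.90 RPM in T-47D, the lowest value it can show, and 0 in LNCaP. With a pseudocount of 10, 9 nuclear receptor genes were called higher in T-47D and 4 in LNCaP. RARG had 353 against 12 read pairs. RARA and RARG thus lay on one side and RARB, with 0 against 72, on the other. Of 17 HOX genes with a loop, 8 were called higher in T-47D, all in the HOXB and HOXC clusters, and 5 in LNCaP, namely HOXB13, HOXC5, HOXA9, HOXA10 and HOXB6. Of these 5, HOXC5 moved from -6.59 to 0.16 with merged anchors, HOXA9 and HOXA10 had no loop in either list when LNCaP was thinned, and HOXB6, at 3.94 RPM, lay under the lowest value that T-47D can show. With 1 start site per gene, 11 HOX genes had a loop, of which 4 were called higher in T-47D and 5 in LNCaP, and HOXC6 turned to LNCaP. Neighbours in the HOX clusters share anchors and are not independent.

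Ribosomal, junction, immediate-early, cell cycle and ETS genes had medians between -0.82 and 1.11. Of 78 cytosolic ribosomal protein genes, 67 lay within the limits, 3 were called higher in T-47D and 8 in LNCaP, with a median of 0.37. Of 24 epithelial junction and keratin genes, 7 were called in each direction, with KRT19 and KRT7 on the T-47D side and GRHL2, TJP1 and CDH1 (23.7 against 593 RPM) on the LNCaP side. Of 22 immediate-early genes, 5 were called higher in T-47D and 2 in LNCaP, MYC at 234 against 1228 RPM and ZFP36. ZFP36 lost its call with merged anchors (-1.82). Of 17 G1 cell cycle genes the counts were 5 and 3, with a median of 1.11, and of 18 ETS genes 5 and 3, with a median of -0.82. CDK6 and ELK3 were called on 8.90 RPM in T-47D, the lowest value it can show, and 0 in LNCaP. With a pseudocount of 10 the counts were 4 and 2 for G1 genes and 2 and 1 for ETS genes. Setting the median ratio of well-covered genes to 1 changed the sign of the median for the ribosomal (-0.51) and immediate-early (-0.36) genes. The breast list then stood at 2.38. The prostate median of -5.84 was that of TRPM8, which had 0 in T-47D, so this scaling could not change its value.

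**Figure D5:**
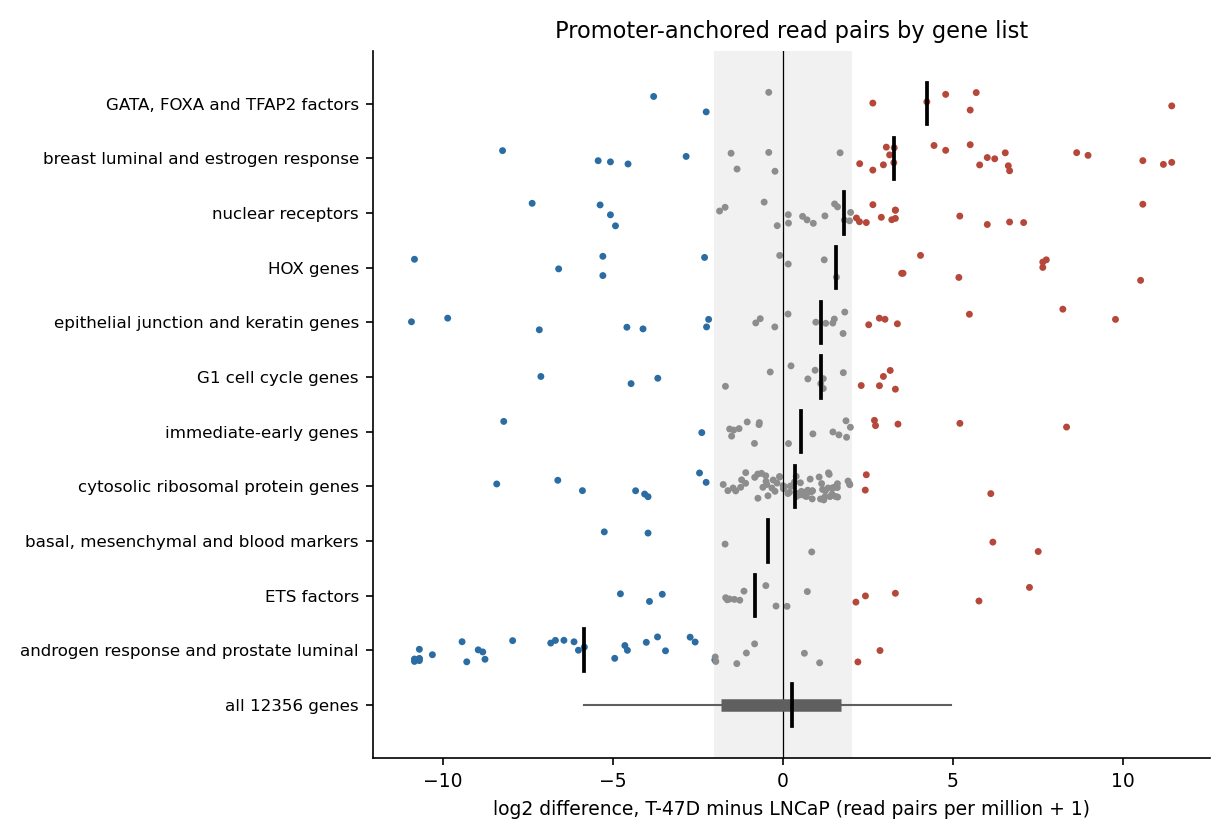
Log2 differences (T-47D minus LNCaP) of the genes with a loop are shown for 11 gene lists, 1 dot per gene, red at 2 or more and blue at -2 or less, with the list median as a black bar, and the bottom row gives the 5th to 95th percentile (line) and the middle 50% (box) of all genes. The androgen and prostate list lies mainly to the left (median -5.84), the breast and estrogen list mainly to the right (3.26), and ribosomal protein genes lie around 0.37.

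The surroundings of a promoter moved with it. Across the 8748 genes in both lists, the difference of a gene and that of the loops around it had a Spearman rho of 0.440, a description over genes that share loops and libraries. By chromosome, genes on chromosomes 8, 11 and 20 had the highest median differences (1.13, 1.13 and 1.08) and genes on chromosomes 18, 13 and 4 the lowest (-0.40, 0.00 and 0.00). On chromosome 18, 38.2% of genes were called higher in LNCaP and 10.6% in T-47D, and that chromosome held 2.78% of LNCaP and 0.468% of T-47D read pairs. Both lines are aneuploid, and the part of copy number in these differences was not tested.

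The distal partners differed in base composition. The 9666 T-47D anchors without a promoter had 45.8% G and C, and the 29783 in LNCaP 41.2%. On both strands, the androgen receptor half-site occurred 8.22 times per 10 kb in T-47D and 9.37 times in LNCaP distal anchors, the GATA motif 6.47 and 8.51 times, and the forkhead motif 1.799 and 2.21 times. The AP-2 motif GCCNNNGGC, rich in G and C, went the other way with 3.62 and 1.78 matches. The TATA box motif, a core promoter element, stood at 10.1 and 14.5. The motif densities thus moved together with base composition, whose part in them was not tested. LNCaP anchors that overlapped T-47D ones had 45.7% G and C and an androgen receptor half-site density of 8.12, close to the T-47D values.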

How the data were processed

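HiChIP was done on T-47D (1 sample), LNCaP (2 samples) and Ishikawa cells (4 samples). Per the study's methods, the authors aligned reads to hg19 with HiC-Pro, called loops with hichipper and removed loops with few reads or a high false discovery rate; their versions are not given in the sources used here. The values used are counts of read pairs per loop, as deposited, 1 list per line, with replicates and Ishikawa treatments merged by the authors. Loops of different autosomal anchors, 5000 to 2000000 bp apart, were joined to start sites of GENCODE release 44 lifted to GRCh37 (500 bp windows) with Python 3.11.15, pandas 2.3.3, numpy 2.4.6 and scipy 1.17.1, and plotted with matplotlib 3.10.9. Gene sums were scaled to 1000000 read pairs and compared as log2(value + 1). Calls needed a difference of 2. The script was checked on simulated data.

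Named loci were the 15 with the highest and the 15 with the lowest difference, the 8 at each end among genes with 20 or more read pairs in both lists, the 15 with the highest lower value, the 6 with the smallest common share among genes with 100 or more in both, and the members of the gene lists. Some genes of this rule are not reported here. Within each of these sets, genes on a common promoter anchor were given as 1 locus. The members and lists were chosen with earlier results of these data known. Alternatives changed the read pair minimum, depth, window, start sites, span, partners, pseudocount, scaling and anchors. With 1 list per line no test was run. Sex chromosomes were not analysed here, which leaves out the androgen receptor gene.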

Additional observations from a re-analysis of the deposited data

Results flagged for a closer look

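A signal lay in rows that the comparison did not use. Of the 2638 genes with a promoter loop in LNCaP alone, 680 (25.8%) had a T-47D anchor on a start-site window in some row of the T-47D list, such as a row that joins an anchor to itself. The T-47D list held 15042 such self rows and the LNCaP list 0, so a T-47D value of 0 at these genes says that no kept loop was listed there, not that the promoter carried no acetylation. None of the 15 LNCaP end loci was among the 680.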

How the results depend on the processing

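No paired analysis was possible because each line has 1 list, and the labels give T-47D no replicate number. Against 2606 genes higher in T-47D and 2946 higher in LNCaP, thinning LNCaP to the T-47D total gave 4159 and 1972, a pseudocount of 10 gave 1548 and 1404, the median ratio set to 1 gave 1605 and 3605, and loops of 5 or more and of 10 or more read pairs gave 2358 and 4034, and 1805 and 4709. The median log2 difference over genes in both lists (0.65) was 0.79 with 5 or more and 1.16 with 10 or more read pairs per loop, 0.58 when thinned, 0.72 with 1 start site, 0.76 with spans of 20 kb to 1 Mb, 0.5787 with distal partners alone, 0.52 with a pseudocount of 10, 0.45 when scaled to promoter loops, 0.59 with a 10 kb window and 1.44 per kb of anchor. Its sign changed, to -0.21, with the median ratio set to 1, a scaling that shifts this median by its own rule. Spearman rho (0.471) was 0.425 and 0.393 with 5 or more and 10 or more read pairs, 0.382 when thinned, 0.498 with 1 start site, 0.453 with the narrower span, 0.275 with distal partners and 0.551 per kb. The share of promoter read pairs in common loops fell from 53.6% to 24.4% in T-47D and from 26.2% to 6.77% in LNCaP when 50% of both anchors had to overlap, and was 31.3% and 30.4% when thinned. Reversals were counted where the reported difference was 2 or more in size, which no locus high in both reached. Among the loci at the ends or with few common loops, the direction reversed for 5 by that rule. With 1 start site these were TRPS1 (-1.70), H2BC6 (-6.11) and HOXC6 (-5.54). With merged anchors they were H2AC7 (0.14, also with a 10 kb window) and H2BC14 (0.12). Differences of the loci high in both ran from -1.87 to 1.62, and from -2.76 to 0.73 with the median ratio set to 1. Among gene list members called, KRT18 (1.61) and HOXC5 (0.16) reversed with merged anchors. Per kb, NFIX turned, and so did FOXA1, EHF, TBL1XR1 and H4C5 among the loci high in both. The causes were not tested. Merged anchors, the 10 kb window and scaling per kb were chosen after seeing the data.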
